A study of Homo sapiens with 9 samples.

Results

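The genes described here encode the enzymes that make and break fructose 2,6-bisphosphate and the kinases that switch off pyruvate dehydrogenase. They were chosen by symbol from the deposited table of read counts, and all 9 of them, PFKFB1, PFKFB2, PFKFB3, PFKFB4, TIGAR, PDK1, PDK2, PDK3 and PDK4, were among its 60591 symbols. The cells were uCaco-2, the undifferentiated, proliferating state of the human colon adenocarcinoma line Caco-2. They were exposed for 24 h to 300 μM CoCl2 or to 5 μM of an oxyquinoline derivative (OD), and the control cells received fresh medium. The medium of all 3 groups held 0.5% DMSO, and each group had 3 biological replicates of this 1 line, and stranded mRNA libraries were sequenced as single-end reads. Both agents are used to block the prolyl hydroxylases that mark the hypoxia-inducible factor (HIF) for destruction, which makes them chemical models of hypoxia.

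Fructose 2,6-bisphosphate is the strongest allosteric activator of 6-phosphofructo-1-kinase, the committed step of glycolysis, and it inhibits the opposing enzyme of gluconeogenesis. The PFKFB enzymes carry a kinase that makes this metabolite and a phosphatase that removes it in 1 protein, and the isoforms differ in the balance of both activities. TIGAR resembles the phosphatase domain alone. Pyruvate dehydrogenase kinases phosphorylate the E1 subunit of the pyruvate dehydrogenase complex and so close the entry of pyruvate into mitochondrial oxidation. PDK1, PFKFB3 and PFKFB4 are well-known HIF target genes, and PDK4 is known for its response to fasting and fatty acids.

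Total counts per library ranged from 15998136 to 24209427, and 15944 symbols passed the expression filter and were tested. Levels are given in CPM, which scales counts to equal library totals after correction by the TMM factors of edgeR, which allow for shifts in composition. These factors were 0.77 to 0.795 with CoCl2, 1.11 to 1.12 in control cells and 1.14 to 1.15 with OD, and the top 50 genes by abundance held 21.7% to 22.3% of each CoCl2 library against 15.7% to 16.2% of the other 6. With library size alone in place of these factors, the median over all genes with CoCl2 was -0.55 on the log2 scale in place of -0.049, and that between CoCl2 and OD was -0.60 in place of -0.054, so the values with CoCl2 below are relative to the TMM scale. Of 9 colon epithelium markers, 8 had more than 10 counts in every library, and GPA33 was at or below 0.624 CPM on average in each group. VIL1, which encodes the microvillus protein villin, was at 613 CPM in control cells, 454 with OD and 112 with CoCl2. KRT20 was also lower with CoCl2 than in control cells on average, while CDX2, CDH17, EPCAM, CDH1, KRT8 and KRT18 were higher. KRT8 and KRT18, most of the sum below, were at 4983 and 2867 CPM in control cells and 6339 and 3442 with CoCl2. The summed level of the 9 markers was 10390 to 10843 CPM in control cells, 12388 to 13274 with CoCl2 and 9923 to 10453 with OD, while 5 fibroblast, 4 leukocyte and 4 endothelial markers each summed to at most 27.3 CPM. In bulk RNA, fewer cells of a kind and less RNA per cell cannot be told apart.

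PFKFB3, PFKFB4 and PDK1 rose with both agents, PDK3 rose with OD, and TIGAR was higher with CoCl2 than with OD. Of the 9 genes, 7 passed the expression filter, all of them in each of the 3 groups, and PFKFB1 and PDK4 stayed below it. Calls required a log2 fold change beyond 1 in either direction and an adjusted p below 0.05, from the quasi-likelihood test of edgeR with Benjamini-Hochberg adjustment over every tested symbol. With CoCl2, 3 of the 7 were called higher and 0 lower, where 19.9% of all tested genes were called higher and 23.4% lower, 43.2% in all. With OD, 4 of the 7 were called higher and 0 lower, against 9.09% and 4.16% of all tested genes, 13.3% in all. Between the agents, 1 of the 7 was called higher with CoCl2 and 2 lower, against 17.5% and 23.8% of all tested genes, 41.3% in all. By edgeR's adjusted p alone, 6 of the 7 passed with CoCl2, 7 with OD and 7 between the agents, where 83.2%, 65.6% and 83.5% of all tested genes did. This last comparison sets 300 μM of CoCl2 beside 5 μM of OD, so the doses differ. The libraries of the groups did not overlap for 6 of the 7 genes with CoCl2, for 7 with OD and for 7 between the agents, where the shares of all tested genes were 83.4%, 68% and 83.8%. The median log2 fold change of the 7 genes was 0.52 with CoCl2 and 1.82 with OD, beside -0.049 and -0.010 over all tested genes. Both comparisons share the control libraries, and the genes were chosen with results of these data known. PFKFB3, PFKFB4 and PDK1 are also on the core list of the study, which was selected partly on these libraries, so their calls are not independent evidence of that list.

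**Figure D1:**
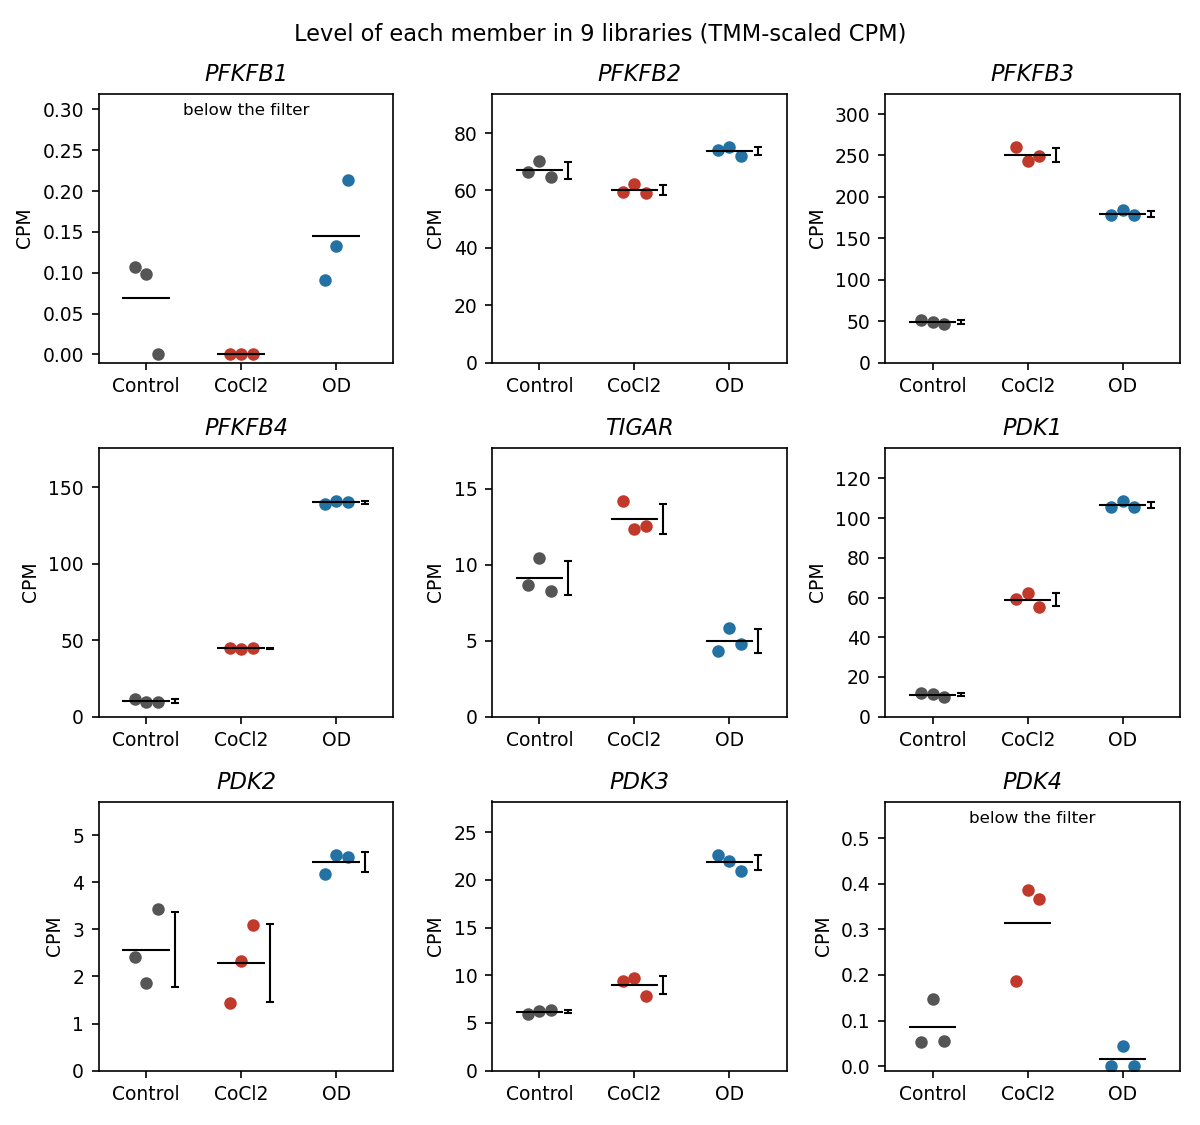
Level of each of the 9 genes in CPM (linear axes) in the 3 control, 3 CoCl2 and 3 OD libraries, where points are libraries, horizontal lines group means and vertical bars 1 SD. PFKFB4 sits near 10.1 CPM in control cells, 44.8 under CoCl2 and 140 under OD, while PFKFB1 and PDK4 stay at or below 0.387 CPM in every library.

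The promoter windows of the members called higher with at least 1 agent are shown, so that they can be read beside that of TIGAR, which was called with neither. They come from RefSeq on GRCh38.p14, which has windows for 8 of the 9 genes, and the search covered the 250 bases before each annotated start. The letters searched were ACGTG and GCGTG on both strands, the core of the sequence that HIF is known to bind, and matches are in capitals, with overlapping matches joined. Over all 35116 windows of this length, 43.2% held at least 1 of these motifs, 18.5% held ACGTG and 32.2% held GCGTG. Each line shows the longest stretch of a window without annotated exons, or 30 bases where the match lay in an exon. Introns were not left out, so the sequence shown can be transcribed. The stretches of PFKFB3, PFKFB4, PDK1 and TIGAR lie within the annotated spans of their genes, and that of PDK3 lies outside.
PFKFB3, chr10:6202694-6202865, plus strand: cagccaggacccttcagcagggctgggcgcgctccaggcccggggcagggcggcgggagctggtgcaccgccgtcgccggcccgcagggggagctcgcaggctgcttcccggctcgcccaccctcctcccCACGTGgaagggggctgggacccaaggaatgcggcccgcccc
PFKFB4, chr3:48556924-48556982, minus strand: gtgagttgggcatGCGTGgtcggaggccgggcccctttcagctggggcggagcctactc
PDK1, chr2:172556060-172556089, plus strand: ccctgctgcccgcCACGTccctCACGTacc
PDK3, chrX:24465036-24465243, plus strand: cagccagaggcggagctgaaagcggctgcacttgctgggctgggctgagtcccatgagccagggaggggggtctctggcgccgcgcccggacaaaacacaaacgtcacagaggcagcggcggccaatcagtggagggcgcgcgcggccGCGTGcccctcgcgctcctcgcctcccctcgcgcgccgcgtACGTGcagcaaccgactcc
TIGAR, chr12:4320963-4321212, plus strand: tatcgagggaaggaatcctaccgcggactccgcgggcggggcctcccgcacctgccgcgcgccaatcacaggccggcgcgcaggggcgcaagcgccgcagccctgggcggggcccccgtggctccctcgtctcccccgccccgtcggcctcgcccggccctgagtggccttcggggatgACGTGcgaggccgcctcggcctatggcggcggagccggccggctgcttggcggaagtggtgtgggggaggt

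PFKFB3 had 2 windows, and the one shown holds a palindromic match that reads ACGTG on both strands, from 108 to 103 bases before the start, while the other, upstream, holds 1 GCGTG match on the minus strand. PDK1 also had 2 windows. The one shown holds ACGTG on the minus strand at 2 places, from 17 to 13 and from 8 to 4 bases before the start, inside annotated exon sequence, and the other window holds no match. PFKFB4 holds GCGTG alone, from 166 to 162 bases before its start. PDK3 holds GCGTG from 102 to 98 and ACGTG from 61 to 57 bases before its start, and TIGAR holds ACGTG from 71 to 67. Of 3 PDK2 windows, 1 holds both motifs, and the windows of PFKFB1 and PDK4 hold neither. A match occurs in 43.2% of all windows, and matches at 2 or more places, as in 1 window each of PDK1, PDK2 and PDK3, occur in 16.2%. These shares are per window, while some genes here had 2 or 3 windows. G and C made up 67.6% to 79.6% of the windows here with a match and 35.6% to 64.4% of those without. Both motifs are rich in G and C, and the share among windows of like content was not computed. In at least 1 window, a match was present for genes called with both agents, for PDK3, called with OD and not with CoCl2, and for TIGAR and PDK2, called with neither.

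PFKFB3 encodes the isoform with by far the highest ratio of kinase to phosphatase activity. In GRCh38 it spans 6144934 to 6254644 of chromosome 10, plus strand. The counts were 954, 998 and 830 in the control libraries, 4177, 3139 and 4752 with CoCl2 and 3917, 4149 and 3340 with OD. Scaled to CPM these were 51.3, 48.9 and 46.6 in control cells, 260, 243 and 249 with CoCl2 and 178, 184 and 178 with OD, so the 3 groups did not overlap and CoCl2 gave the highest level. The log2 fold change was 2.36 with CoCl2 (SE 0.048, adjusted p = 7.06e-49 by edgeR) and 1.88 with OD (SE 0.047, adjusted p = 2.12e-42), or 5.12-fold and 3.68-fold. Set directly against OD, CoCl2 gave more PFKFB3 by 0.48 on the log2 scale (SE 0.042, adjusted p = 3.57e-16 by edgeR), below the fold threshold, and this value turned to -0.068 when scaled by library size alone. PFKFB3 therefore rose with each agent under every alternative tried, while the order of the agents depended on the scaling.

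PFKFB4, the isoform named after testis and known for its strong response to hypoxia, is read from the minus strand of chromosome 3, from 48517684 to 48562015. Its levels were 11.5, 9.56 and 9.37 CPM in control cells, 45.0, 44.4 and 44.8 with CoCl2 and 139, 141 and 141 with OD. Replicates differed little within each group, and the groups were far apart. The log2 fold change was 2.14 with CoCl2 (SE 0.072, adjusted p = 1.04e-36 by edgeR) and 3.79 with OD (SE 0.064, adjusted p = 4.62e-52), which is 4.42-fold and 13.8-fold. With OD it ranked 34 of 15944 tested genes by its log2 fold change, and with CoCl2 900. In the direct comparison it was 3.13-fold lower with CoCl2 than with OD (log2 difference -1.65, SE 0.052, adjusted p = 5.15e-38 by edgeR), with a log2 difference from -2.19 to -1.60 over the alternatives. Of its exonic bases, 4.88% are shared with UCN2 on the same strand, which had at most 2 counts in any library.

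PFKFB2, the heart isoform, lies on the plus strand of chromosome 1 from 207034366 to 207081024. It was at 66.3, 70.3 and 64.5 CPM in control cells, 59.5, 62.1 and 58.9 with CoCl2 and 74.0, 75.0 and 72.0 with OD. The 3 groups did not overlap, but the steps between them were small. The log2 fold changes were -0.16 with CoCl2 (SE 0.053, adjusted p = 0.00501 by edgeR) and 0.14 with OD (SE 0.050, adjusted p = 0.015), neither past the fold threshold. With library size alone the value with CoCl2 was -0.66. PFKFB1, the liver and muscle isoform at 54932961 to 54998534 of chromosome X, minus strand, was barely detected, with 2, 2 and 0 counts in the control libraries, 0 in each of the 3 CoCl2 libraries and 2, 3 and 4 with OD. A count of 0 allows up to 3 counts, or 0.232 CPM in the smallest CoCl2 library, so no difference of PFKFB1 was detectable at this depth against control cells.

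**Figure D2:**
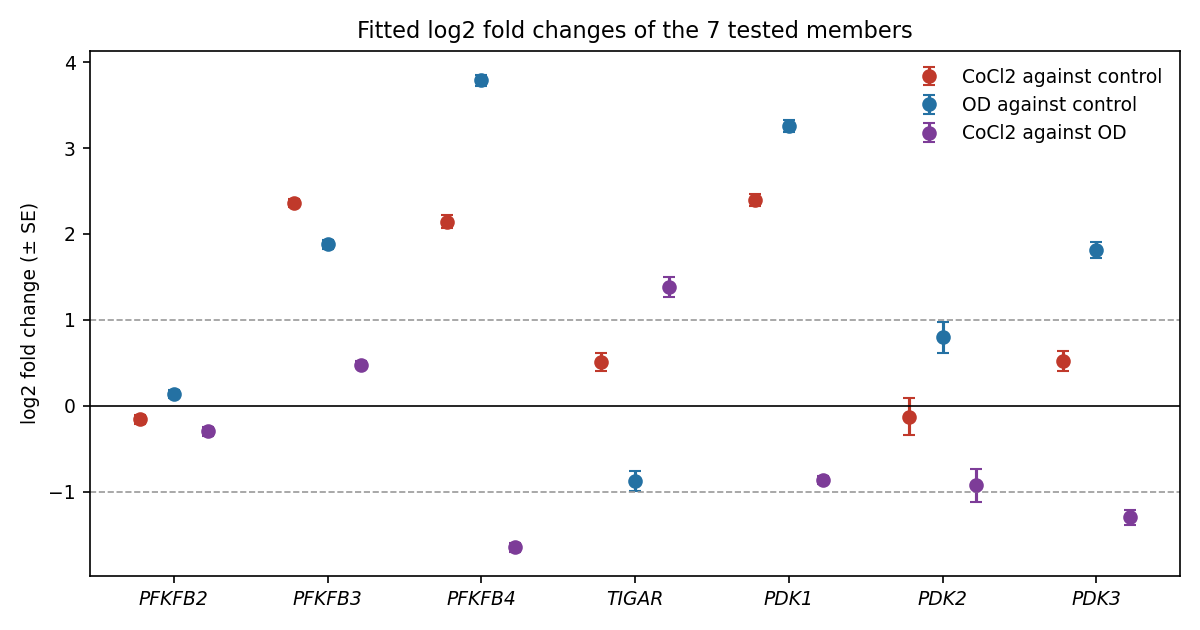
Fitted log2 fold changes of the 7 tested genes (vertical axis, points with 1 SE) for each agent against control and for CoCl2 against OD, with dashed lines at the fold threshold of 1 in size. PFKFB4 shows the widest gap between the agents among the PFKFB genes, 2.14 against 3.79, and TIGAR lies at 0.51 with CoCl2 and -0.87 with OD.

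TIGAR, a phosphatase that lowers fructose 2,6-bisphosphate, was called with neither agent against control. It lies on the plus strand of chromosome 12 from 4307763 to 4360028. Its levels were 8.66, 10.4 and 8.30 CPM in control cells, 14.2, 12.4 and 12.6 with CoCl2 and 4.31, 5.86 and 4.79 with OD. The CoCl2 libraries were all above the control libraries and the OD libraries all below them. The log2 fold change against control was 0.51 with CoCl2 (SE 0.104, adjusted p = 1.15e-05 by edgeR) and -0.87 with OD (SE 0.118, adjusted p = 2.00e-09), both short of the fold threshold. Scaled by library size alone, the value with CoCl2 was 0.0035, so the higher level with CoCl2 than in control cells was not seen under that scaling. Without OD replicate 2 the value with OD was -1.01 and passed the threshold. The direct comparison of the agents gave 2.61-fold more TIGAR with CoCl2 (log2 difference 1.38, SE 0.114, adjusted p = 2.01e-17 by edgeR), and 0.84 on the log2 scale with library size alone, below the threshold. In the annotation used here, 18.1% of the exonic bases of TIGAR also belong to another protein-coding gene on the same strand, so part of its reads could have been assigned differently.

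PDK1 encodes the kinase isoform that phosphorylates all sites of pyruvate dehydrogenase, and it rose with both agents. The gene lies on the plus strand of chromosome 2 from 172555373 to 172608669. Its levels were 11.7, 11.6 and 10.2 CPM in control cells, 59.1, 62.1 and 55.4 with CoCl2 and 106, 108 and 106 with OD. The groups did not overlap, and OD gave the highest level. The log2 fold change was 2.39 with CoCl2 (SE 0.070, adjusted p = 3.23e-40 by edgeR) and 3.26 with OD (SE 0.065, adjusted p = 2.73e-48), which is 5.26-fold and 9.56-fold, and it ranked 56 of 15944 with OD. CoCl2 and OD differed by -0.86 on the log2 scale (SE 0.052, adjusted p = 1.39e-23 by edgeR), below the fold threshold. With library size alone this difference was -1.41 and passed it.

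PDK3, an isoform known for high activity and low sensitivity to pyruvate, rose with OD. It lies on the plus strand of chromosome X from 24465244 to 24550466, and none of its annotated exonic bases are shared with another gene. It was at 5.97, 6.28 and 6.34 CPM in control cells, 9.39, 9.67 and 7.87 with CoCl2 and 22.6, 22 and 21.0 with OD. The OD libraries stood well above the others, and the CoCl2 libraries lay a little above control. The log2 fold change with OD was 1.82 (SE 0.092, adjusted p = 1.31e-26 by edgeR), or 3.53-fold. With CoCl2 it was 0.52 (SE 0.113, adjusted p = 3.15e-05 by edgeR), below the fold threshold, and it was 0.014 with library size alone. The direct comparison gave 2.46-fold less PDK3 with CoCl2 than with OD (log2 difference -1.30, SE 0.089, adjusted p = 6.63e-21 by edgeR), and from -1.84 to -1.20 over the alternatives.

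PDK2, the most widely expressed kinase of the family in normal tissues, was low in these cells. The gene lies on the plus strand of chromosome 17 from 50094737 to 50112152. Its counts were 45, 38 and 61 in the control libraries, 23, 30 and 59 with CoCl2 and 92, 103 and 85 with OD. In CPM the control libraries spanned 1.86 to 3.42 and the CoCl2 libraries 1.43 to 3.09, which overlap, while the OD libraries spanned 4.18 to 4.57 and lay above both. The log2 fold change with CoCl2 was -0.13 (SE 0.216, adjusted p = 0.586 by edgeR), and it turned to 0.12 without control replicate 3 and to 0.13 without CoCl2 replicate 1. With OD it was 0.80 (SE 0.178, adjusted p = 0.000106 by edgeR), below the fold threshold, and 1.05 and past it without control replicate 3. Between the agents the log2 difference was -0.93 (SE 0.190, adjusted p = 1.81e-05 by edgeR), and -1.27 and past the threshold without CoCl2 replicate 3. Of the exonic bases of PDK2, 38.6% lie opposite exons of SAMD14. Since the strand setting of the counting is not given in the sources used here, reads of both genes may not be told apart. SAMD14 itself had 9 to 11 counts in the control libraries, 1 to 11 with CoCl2 and 21 to 29 with OD, and its part in the PDK2 values was not tested.

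PDK4 was near absent from these cells, with 1, 3 and 1 counts in the control libraries, 3, 5 and 7 with CoCl2 and 0, 1 and 0 with OD. Its position is at 95583499 to 95596516 of chromosome 7, minus strand. The CoCl2 libraries held the most reads, 15 in sum against 5 and 1. Without the expression filter, edgeR gave adjusted p of 0.0742 for CoCl2 against control, 0.278 for OD against control and 0.000843 for CoCl2 against OD (0.0106 by DESeq2), and in that fit PFKFB1 too was called between the agents (adjusted p = 0.0151, and 0.0717 by DESeq2). No fold change is given for either gene, since most of their counts were at or under 3 per library.

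Levels of different genes were compared per kilobase of the union of annotated exons, which carries an error wherever a cell uses only some of these exons. In control cells PFKFB3 led with 8.0 ± 0.390 CPM per kb (SD, n = 3), followed by PFKFB2 with 6.59 ± 0.288, PFKFB4 with 1.66 ± 0.189, TIGAR with 0.967 ± 0.121, PDK1 with 0.750 ± 0.0573, PDK2 with 0.469 ± 0.144 and PDK3 with 0.355 ± 0.0112. The libraries of neighbours in this order did not overlap except for PDK2 and PDK3, and with the longest transcript as the length the PDK1 and PDK2 shares of their family overlapped too. With CoCl2 the leading genes were PFKFB3 at 41.0 ± 1.40 CPM per kb, PFKFB4 at 7.33 ± 0.0517, PFKFB2 at 5.91 ± 0.169 and PDK1 at 3.96 ± 0.226, and PDK3 and PDK2 again overlapped. With OD they were PFKFB3 at 29.4 ± 0.594 and PFKFB4 at 23.0 ± 0.143, and then PFKFB2 at 7.24 ± 0.148 and PDK1 at 7.18 ± 0.104, whose libraries overlapped. TIGAR, above PDK1 in control cells, was below PDK2 and PDK3 with OD, at 0.528 ± 0.0837 CPM per kb.

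The summed level of the 4 PFKFB genes was 16.3 ± 0.706 CPM per kb (SD, n = 3) in control cells, 54.2 ± 1.34 under CoCl2 and 59.7 ± 0.795 under OD, which is 3.33 and 3.67 times control. The make-up of these sums differed. PFKFB2 made up 40.5% ± 1.59 of the family in control cells, 10.9% ± 0.524 under CoCl2 and 12.1% ± 0.174 under OD. PFKFB3 held 49.2% ± 0.700 in control cells and 49.3% ± 0.339 with OD, but 75.6% ± 0.736 with CoCl2. PFKFB4 held 10.2% ± 0.865 in control cells, 13.5% ± 0.247 under CoCl2 and 38.5% ± 0.388 under OD. Per length of the longest transcript, PFKFB3 and PFKFB4 took 44% and 44.4% with OD, so which of them led there depends on the length used. A ratio of 2 genes within a library does not depend on any scaling between libraries. There were 0.223, 0.195 and 0.201 PFKFB4 reads per PFKFB3 read in the control libraries, 0.173, 0.183 and 0.180 with CoCl2 and 0.782, 0.765 and 0.790 with OD. The OD libraries were thus apart from all others, and the CoCl2 libraries lay slightly below control. Each of these differences had p = 0.1 in a two-sided exact permutation test, the smallest that 3 libraries against 3 can give.

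**Figure D3:**
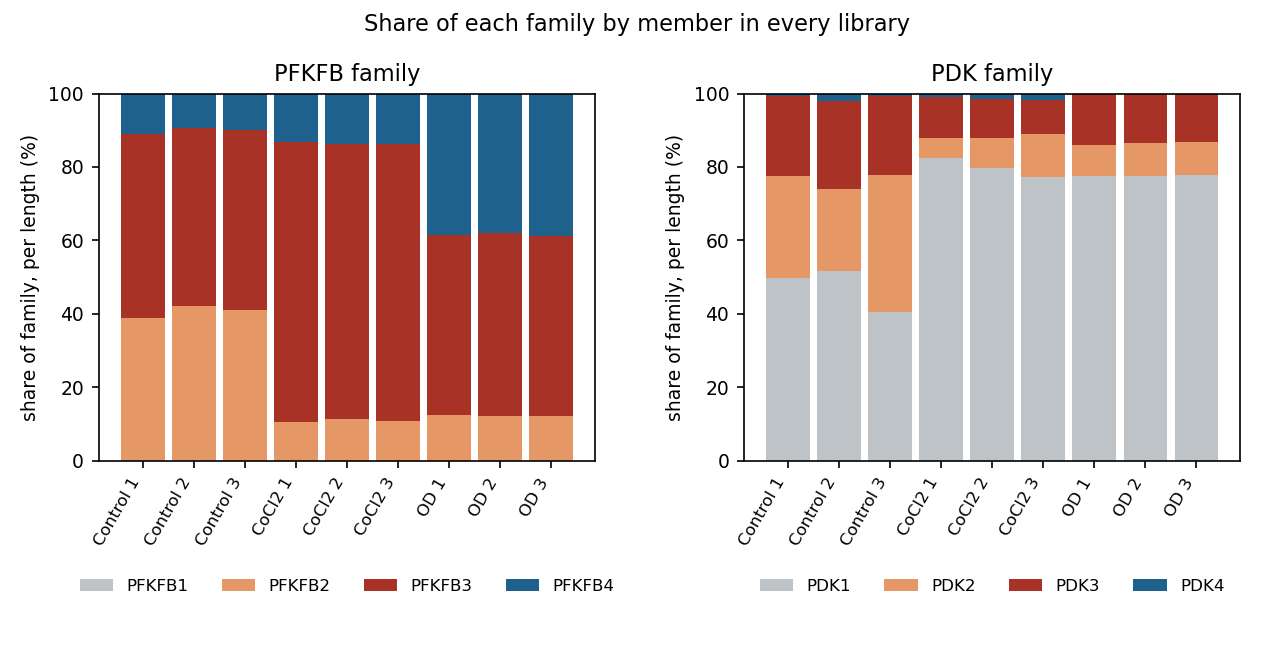
Share of each member in its family (vertical axis, percent of summed CPM per kb) in each of the 9 libraries, for the PFKFB genes and the PDK genes. PFKFB4 takes 10.2% of the PFKFB sum in control cells and 38.5% with OD, and PDK1 takes 79.9% and 77.7% of the PDK sum with CoCl2 and OD, by the union of exons.

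The 4 PDK genes summed to 1.59 ± 0.0870 CPM per kb (SD, n = 3) in control cells, 4.96 ± 0.242 under CoCl2 and 9.25 ± 0.141 under OD, or 3.12 and 5.80 times control. PDK1 made up 47.3% ± 5.86 of this sum in control cells, 79.9% ± 2.65 under CoCl2 and 77.7% ± 0.116 under OD. Per length of the longest transcript, PDK1 made up 38.6% in control cells, where its libraries overlapped those of PDK2, 74.0% with CoCl2 and 71.4% with OD. By the union of exons, PDK2 took 29.2% ± 7.38 in control cells and 8.41% ± 3.16 and 8.75% ± 0.382 with CoCl2 and OD. There were 0.512, 0.542 and 0.624 PDK3 reads per PDK1 read in the control libraries, 0.159, 0.156 and 0.142 with CoCl2 and 0.213, 0.203 and 0.198 with OD, so this ratio separated all 3 groups (p = 0.1 for each agent against control and between the agents, two-sided exact permutation test).

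Of 27 genes around these enzymes, listed by hand as targets, substrates, counteracting enzymes and known transcription factors, 24 were tested. With CoCl2, 4 were called higher and 3 lower, where 43.2% of all tested genes were called, and with OD 2 higher and 1 lower, where 13.3% were, around medians of 0.013 and 0.14 on the log2 scale beside -0.049 and -0.010 over all tested genes. FBP1, FBP2 and PDHA2 stayed below the expression filter, with at most 9, 11 and 1 counts in a library. All values in the next paragraphs are fitted log2 fold changes with edgeR's adjusted p.

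Of the 3 subunits of 6-phosphofructo-1-kinase, the enzyme that fructose 2,6-bisphosphate activates, 2 were called lower with CoCl2, as were 23.4% of all tested genes, and 0 were called with OD, where 13.3% of all genes were. PFKL, the liver-type subunit, fell from 114 ± 1.34 CPM (SD, n = 3) in control cells to 29.2 ± 1.88 with CoCl2 and was at 169 ± 7.05 with OD, with log2 fold changes of -1.96 (adjusted p = 6.46e-41) and 0.57 (adjusted p = 1.48e-17). PFKM, the muscle-type subunit, fell with CoCl2 by 1.59 (adjusted p = 4.12e-35) and had -0.73 with OD. PFKP, the platelet type and the most abundant of the 3 in CPM, had -0.35 and 0.41. In the direct comparison PFKL was 5.77-fold lower with CoCl2 than with OD (adjusted p = 2.18e-47).

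None of the 5 tested subunits of the pyruvate dehydrogenase complex, the substrate of the PDK enzymes, was called with either agent, where 43.2% of all tested genes were called with CoCl2 and 13.3% with OD. PDHA1, the E1 alpha subunit that carries the phosphorylated serines, had -0.15 with CoCl2 and -0.16 with OD, and 19.3% of its exonic bases lie opposite MAP3K15. PDHB had -0.56 and -0.32, DLAT -0.27 and -0.17, DLD 0.12 and -0.32 and PDHX 0.55 and -0.20, all with an adjusted p under 0.05, and with library size alone the values with CoCl2 were -0.39 for DLD and -1.07, past the threshold, for PDHB. The phosphatases that reverse the kinases were not called either. PDP1 was at 23.9 CPM in control cells, 40.5 under CoCl2 and 22.7 under OD, with 0.76 (adjusted p = 9.20e-16) and -0.078 (adjusted p = 0.34). PDP2 had -0.30 and -0.11, and PDPR, the regulatory subunit, had 0.014 and 0.28, the former with a sign that turned with the scaling.

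**Figure D4:**
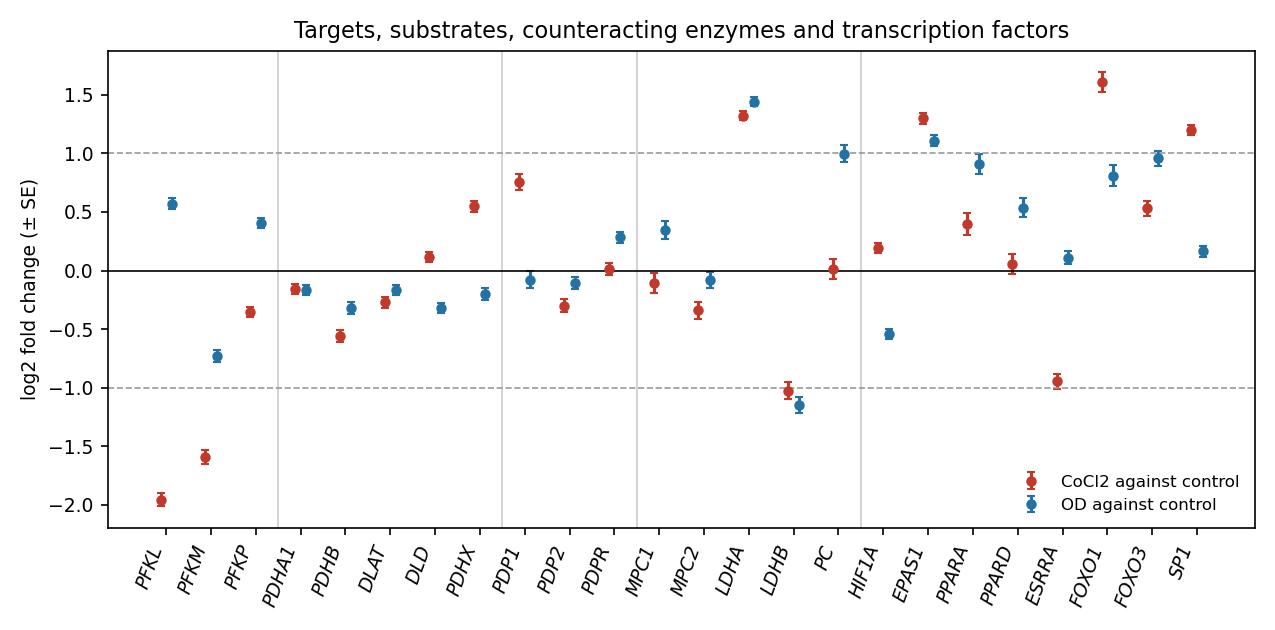
Fitted log2 fold changes (vertical axis, points with 1 SE) of the 24 tested genes around the PFKFB and PDK enzymes for CoCl2 and OD against control, in the order of the lists, with dashed lines at the fold threshold. PFKL lies at -1.96 with CoCl2 and 0.57 with OD, and the 5 subunits of the pyruvate dehydrogenase complex all lie within the threshold.

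LDHA, the lactate dehydrogenase subunit that favours lactate formation, rose with both agents, from 990 ± 13.5 CPM (SD, n = 3) in control cells to 2475 ± 76.4 with CoCl2 and 2689 ± 38.6 with OD, or 1.32 and 1.44 on the log2 scale (adjusted p = 1.03e-39 and 1.16e-40). With library size alone the value with CoCl2 was 0.82, below the threshold. LDHB, the other subunit, fell by 1.02 with CoCl2 and by 1.15 with OD (adjusted p = 7.13e-20 and 5.42e-22), and another gene on the same strand covers 33.4% of its exonic bases. The fall of LDHB with CoCl2 was 0.93 without control replicate 2 and 0.98 without CoCl2 replicate 3, both short of the threshold, and so was the 0.97 with RLE factors. Tested against a log2 fold change of 1 by glmTreat, LDHB was called with neither agent. The pyruvate carrier genes MPC1 and MPC2 had -0.11 and -0.34 with CoCl2 and 0.34 and -0.080 with OD. PC, pyruvate carboxylase, was at 14.5 CPM in control cells, 14.7 under CoCl2 and 29.0 under OD. Its log2 fold change of 0.997 with OD (adjusted p = 2.70e-19) was just under the threshold, with 0.97 to 1.04 over the alternatives. It was called with OD in 12 of 20 alternatives, the adjusted p alone among them, so its status hangs on the processing.

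Of the 8 transcription factors known to act on these genes, EPAS1, which encodes HIF-2 alpha, rose with CoCl2 by 1.30 and with OD by 1.11 (adjusted p = 2.53e-35 and 7.84e-31). FOXO1, a known inducer of PDK4, rose with CoCl2 by 1.61 (adjusted p = 1.66e-26) and had 0.81 with OD, with 22.7% of its exonic bases shared with a noncoding gene on the same strand. SP1 rose with CoCl2 by 1.20 (adjusted p = 7.67e-34) and had 0.17 with OD. EPAS1 and SP1 did not reach the threshold with CoCl2 when library size was the only scaling, at 0.80 and 0.69. HIF1A, whose protein rather than mRNA is known to respond to hydroxylase inhibition, had 0.19 with CoCl2 and -0.54 with OD, and the former turned to -0.31 with library size alone. PPARA, PPARD, ESRRA and FOXO3 had 0.40, 0.054, -0.95 and 0.53 with CoCl2 and 0.91, 0.54, 0.11 and 0.96 with OD, none past the threshold. With library size alone the values of PPARA and PPARD with CoCl2 turned negative, and that of ESRRA was -1.45, past the threshold. PPARA with OD passed it without control replicate 2, at 1.02.

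The genes whose profile over the 9 libraries was nearest to each tested member were found by the root mean square difference of centred log2 CPM, among 13428 genes with at least 1 CPM on average. Nearest to PFKFB3 were CD109, ATF3 and DUSP5, at 0.047, 0.055 and 0.102 on the log2 scale. Nearest to PFKFB4 were RNF183, PDK1 and BHLHE40, at 0.191, 0.336 and 0.337, with a member of the other family among them. Nearest to PDK1 were P4HA1, BHLHE40 and ALDOC, at 0.127, 0.130 and 0.131. PDK3 lay nearest to CAPN8, PAPSS2 and TXNIP, at 0.115, 0.115 and 0.119, and TIGAR to SMG1P7, MIEN1 and MT-ND4L, at 0.117, 0.118 and 0.131. Among the nearest to PFKFB2 were PCNX1, at 0.043, and CYB5B, at 0.050, and nearest to PDK2 were FBXO16, MAPK8IP1 and GPR35, at 0.213, 0.234 and 0.257. These distances describe 9 libraries of 3 conditions, so any gene with the same log2 differences between the conditions comes out near, whatever its level. SMG1P7 is a pseudogene whose reads may belong to other copies.

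**Figure D5:**
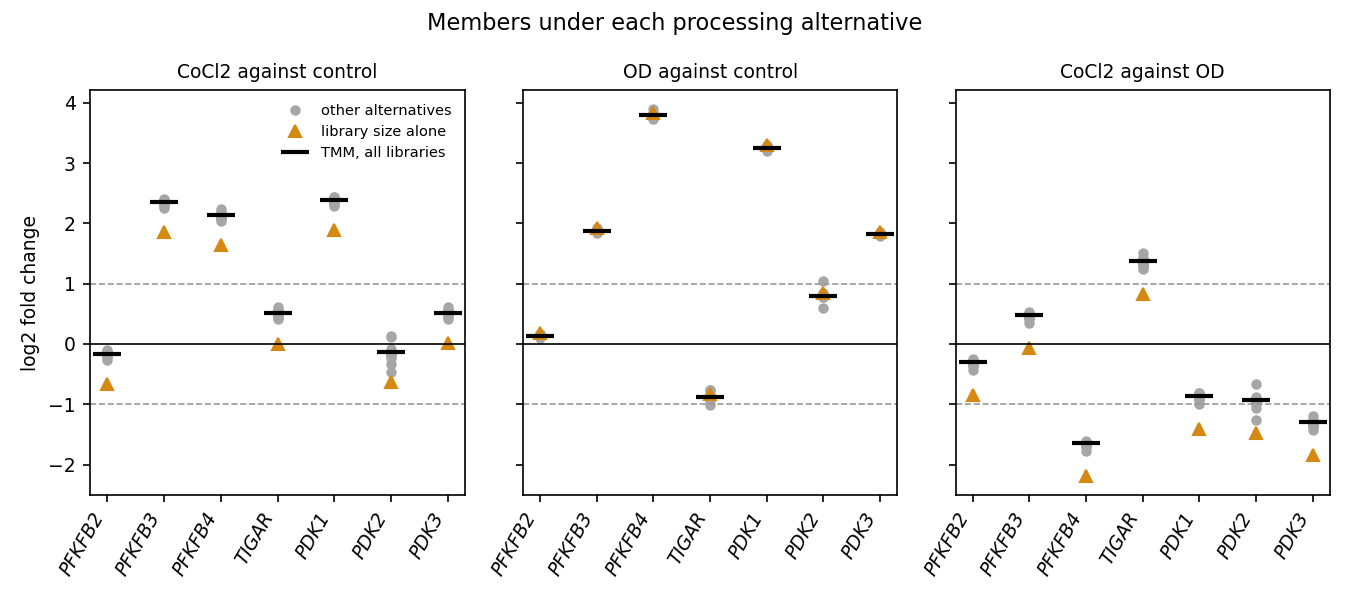
Log2 fold changes (vertical axis) of the 7 tested genes in the 3 comparisons under the TMM fit of all libraries (black bars), library size as the only scaling (triangles) and the other alternatives (grey points). The values with OD against control span 0.60 to 1.05 for PDK2 and -1.01 to -0.76 for TIGAR, both across the threshold, while those with CoCl2 shift downward with library size alone, which takes PFKFB3 from 0.48 to -0.068 between the agents.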

How the data were processed

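Messenger RNA of uCaco-2 cells was measured after CoCl2, OD or neither, with 3 libraries each. The deposited values are raw counts per gene symbol. The authors trimmed reads with cutadapt 2.10, mapped them on GRCh38.p13 with STAR 2.7.5b and counted them on GENCODE genes. The counting tool, its strand setting and its treatment of reads that fit several genes are not given in the sources used here.

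These counts were scaled by TMM factors in edgeR 4.0.16 (R 4.3.3), which kept symbols by its expression filter (minimum count 10) and fitted 1 mean per group over all 9 libraries by robust quasi-likelihood, with Benjamini-Hochberg adjustment over all 15944 tested symbols. The thresholds are those of the authors, who used DESeq2. Each pair of replicates differed beyond sampling noise (chi-square per degree of freedom 1.81 to 3.22). Log2 CPM for profile distances used a prior count of 2. A simulated CoCl2 comparison with 200 genes changed by 2 on the log2 scale, among 15407, gave 200 recovered and 3 false calls. Only well-counted genes were changed in it, up or down at random, and no shift in composition was built in. In the data 43.2% of tested genes were called with CoCl2, so the simulation does not cover the scaling of these libraries or their rate of false calls. Limits on counts cover counting error only. Positions and lengths came from GENCODE release 44. All 9 columns were used.

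The genes named are the 9 members, 27 listed pathway genes, the 9 colon epithelium markers and the 3 nearest profiles of each tested member. One further pathway gene and 1 nearest profile are not reported here. Members and lists were chosen with earlier results of these data known. SAMD14, UCN2, YOD1, VIL1, GPA33 and the gene pairs in ratios were picked with their values in view. The alternatives were separate fits of 6 libraries, DESeq2 1.42.0 on 9 or 6 libraries, scaling by upper-quartile or RLE factors or by library size alone, other count filters, the replicate number as a block, each library left out, glmTreat, and the adjusted p alone.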

Additional observations from a re-analysis of the deposited data

How the results depend on the processing

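The calls of PFKFB3, PFKFB4 and PDK1 with both agents and of PDK3 with OD held under every alternative run, as did the lower PFKFB4 and PDK3 with CoCl2 than with OD. The call of TIGAR between the agents was lost with library size alone (0.84), and PDK1 and PDK2 were then called lower with CoCl2 than with OD. With the adjusted p alone, 6 of the 7 tested members were called with CoCl2, 7 with OD and 7 between the agents, 20, 21 and 22 of the pathway genes, and 13260, 10466 and 13311 of all genes. Without a count filter 5 members were called between the agents. Over all genes with OD, at least 10 counts in every library gave 1134 calls and glmTreat 965, in place of 2113. Between the agents, glmTreat gave 1 pathway gene and library size alone 7, in place of 3. Leaving out 1 library gave 3 to 5 pathway genes with OD, the 5 without control replicate 2. Library size alone cut the share of higher calls from 46% to 23.9% with CoCl2 and from 42.4% to 18.3% between the agents.

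The following values changed sign, and none of them was called. With CoCl2 and library size alone, they were -0.39 for DLD, -0.31 for HIF1A, -0.49 for PC, -0.49 for PDPR, -0.11 for PPARA and -0.45 for PPARD. Between the agents, they were -0.068 for PFKFB3, -0.11 for DLD, -0.35 for EPAS1, -0.42 for LDHB and -0.54 for PDHA1. With upper-quartile factors, PC had -0.088, PDPR -0.086 and PPARD -0.046 with CoCl2, and LDHB had -0.0092 and PDHA1 -0.12 between the agents. Without a count filter, PC had -0.053, PDPR -0.051 and PPARD -0.010 with CoCl2, and PDHA1 -0.057 between the agents. With at least 10 counts in every library, PC had -0.017 and PDPR -0.014 with CoCl2, and PDHA1 -0.044 between the agents. PC had -0.00096 with CoCl2 on its own 6 libraries, and PDHA1 -0.0096 between the agents with DESeq2 on 6. Leaving out 1 library gave -0.47 to 0.13 for PDK2, -0.018 to 0.041 for PC, -0.040 to 0.056 for PDPR and -0.0078 to 0.10 for PPARD with CoCl2, and -0.017 to 0.047 for PDHA1 between the agents. The cause of these changes was not tested, beyond the downward shift of all genes with CoCl2 under library size alone.

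With the replicate number as a block, 3, 4 and 3 members were called in the 3 comparisons, as without it, and 6901, 2115 and 6568 of all genes, and it changed no other call. Libraries with the same number deviated together weakly at most (correlations of -0.0049 to 0.038 over 9 pairs, none above 0.1). Of 9 libraries, 6 correlated best with their own number, so a weak pairing is not excluded. The numbers were not taken as pairs. Per-length shares of the longest transcript moved PFKFB4 with OD from 38.5% to 44.4% and PDK1 in control cells from 47.3% to 38.6%. Depth limits PDK2, with 23 to 103 counts, to standard errors near 0.2 on the log2 scale, and gives no usable value for PFKFB1 or PDK4.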

Other observations

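Pairs of opposing enzymes were compared within libraries, where no scaling between libraries enters, and the pairs were chosen after their values were seen. There were 5.93, 4.69 and 5.61 PFKFB3 reads per TIGAR read in the control libraries, 18.3, 19.6 and 19.8 with CoCl2 and 41.2, 31.4 and 37.1 with OD, so the groups did not overlap and the ratio was highest with OD, where TIGAR was lowest. There were 0.541, 0.448 and 0.417 PDK1 reads per read of PDP1, the phosphatase that reverses it, in the control libraries, 1.44, 1.47 and 1.44 with CoCl2 and 4.85, 4.51 and 4.77 with OD. All these differences had p = 0.1 in a two-sided exact permutation test, the smallest that 3 libraries against 3 can give.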
